A study of Xenopus laevis with 6 samples.

Results

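The gene sp4-c of the African clawed frog Xenopus laevis encodes a sperm-specific basic nuclear protein, and it was examined in testes of frogs exposed to the triazine herbicide atrazine. It was chosen by its FPKM, which was 2.81-fold lower on average after exposure, so its own atrazine and control values are given as a description without a test. Rows of the mRNA table whose description holds the words sperm-specific or protamine were added to it. This gave 3 rows of 31598, namely sp4-c, LOC100192369 (sperm-specific nuclear basic protein 1) and LOC108696983 (sperm-specific protein Don juan-like). The deposited descriptions name a protamine in 0 rows, and 9072 rows (28.7%) carry no description and could not be matched by its words.

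Total RNA of testis, depleted of ribosomal RNA, was sequenced in 6 libraries. The exposed frogs lived for 180 days with atrazine at 100 µg/L, and the control frogs had received none. Each group held 3 libraries, taken at postnatal day 193. Whether the libraries of a group stand for different animals is not stated in the labels. The p-values therefore cover only the spread among these libraries, which may be technical.

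In the last steps of sperm formation the nucleus of the spermatid is packed into a small, dense head, and small proteins rich in basic residues bind the DNA there. In mammals protamines replace nearly all histones. In Xenopus sperm a set of sperm-specific basic nuclear proteins joins the histones that are kept, and after fertilisation the egg chaperone nucleoplasmin removes these proteins from the sperm chromatin. The genes are transcribed in male germ cells. The stage of germ cell that holds their transcripts was not tested here.

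The sp4-c row lay on the forward strand of an unplaced scaffold, at 2134070 to 2135014 in the coordinates of the deposited table. It had 290, 335 and 362 FPKM (fragments scaled to transcript length and library size) in atrazine replicates 1, 2 and 3, against 713, 1207 and 856 FPKM in control replicates 1, 2 and 3. The highest atrazine library, replicate 3, lay below the lowest control library, replicate 1, so the groups did not overlap. The means were 329 ± 36.0 FPKM in atrazine testes and 925 ± 254 FPKM in control testes (SD, n = 3 each), which is 2.81-fold lower after exposure. On the log2(FPKM + 1) scale the difference, atrazine minus control, was -1.46 ± 0.19 (SE). Leaving out control replicate 2, the highest library, gave 2.38-fold lower, and leaving out any other single library gave between 2.66-fold and 3.14-fold lower.

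The values rested on many reads. By the step that a single read makes in the deposited signal, sp4-c had an estimated 1220, 1485 and 772 reads in the atrazine libraries and 3477, 5631 and 3294 reads in the control libraries. The counting error was between 1.33% and 3.60% of the value in each library, below the spread between libraries. In a tissue sample, fewer germ cells with sp4-c RNA and less of that RNA in each such cell cannot be told apart. The same holds for all germ cell and marker values below.

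The rank of sp4-c among all mRNA rows restates the values for which it was picked. In atrazine replicates 1, 2 and 3 it was the 237th, 214th and 191st row by FPKM, whereas in control replicates 1, 2 and 3 it was the 106th, 28th and 54th. Among the 759 tested rows with a mean of at least 100 FPKM it had the third lowest difference. The other two were LOC108703714 and LOC108713404, named rflcii.S and rflcii.L in assembly v10.1, whose description is insulin-like 3, a peptide that Leydig cells secrete. Over all 23824 tested rows, 9 had a difference at or below that of sp4-c, itself included. A row picked for its lower level had to stand near this end, so these places are a description and were not tested.

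**Figure D1:**
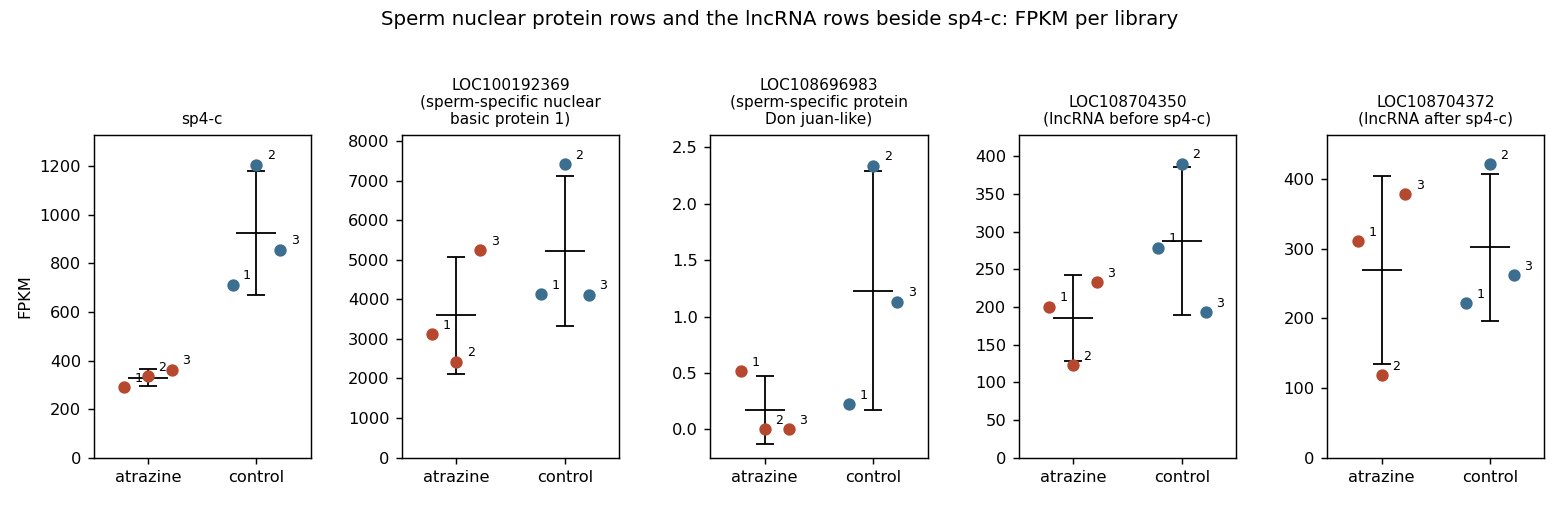
FPKM in each library (numbered points) of the 3 rows described as sperm-specific and of the lncRNA rows on either side of sp4-c, for atrazine (left) and control (right), with the mean as a long bar and the SD as an error bar (n = 3). The sp4-c points do not overlap, with 290 to 362 FPKM in atrazine and 713 to 1207 FPKM in control, whereas the points of the other 4 rows do.

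The second member, LOC100192369, encodes another basic protein of the sperm nucleus and was far more abundant. It lay on the forward strand of chromosome 4S, at 108395944 to 108396617. It had 3112, 2424 and 5248 FPKM in atrazine replicates 1, 2 and 3, against 4138, 7425 and 4122 FPKM in control replicates 1, 2 and 3. Atrazine replicate 3 stood above control replicates 1 and 3, so the groups overlapped. The row was among the 4 most abundant mRNA rows in each library, and the most abundant of all in control replicate 2.

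The means of LOC100192369 were 3595 ± 1473 FPKM in atrazine testes and 5228 ± 1902 FPKM in control testes (SD, n = 3 each). The log2 difference was -0.56 ± 0.32 (SE), with a 95% interval of -1.29 to 0.18 and a limma adjusted p of 0.693. The difference did not pass the test. The interval spans 0, so these libraries do not show whether LOC100192369 differed. Without atrazine replicate 3, the highest atrazine library, the atrazine mean was 1.89-fold lower than the control mean, and without control replicate 2 it was 1.15-fold lower. With all 6 libraries it was 1.45-fold lower.

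The third member, LOC108696983, is named after Don juan, a protein of Drosophila spermatids. It lay on the reverse strand of chromosome 7L, at 43825414 to 43829778, and its level was near the limit of detection. It had 0.517, 0 and 0 FPKM in atrazine replicates 1, 2 and 3, against 0.223, 2.33 and 1.13 FPKM in control replicates 1, 2 and 3. These values stand for an estimated 2, 0 and 0 reads in the atrazine libraries and 1, 10 and 4 reads in the control libraries. The groups overlapped, and the row passed the filter through 1 atrazine library and 2 control libraries. The log2 difference was -0.84 ± 0.34 (SE), with a 95% interval of -1.63 to -0.05 and a limma adjusted p of 0.693. That interval leaves out 0, but it is not adjusted for the number of rows tested. The difference did not pass the test. At so few reads no fold is given.

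All 3 members passed the filter of at least 0.5 FPKM in at least 3 libraries. Of the other 2 members, 0 passed the test, and over the 23824 mRNA rows tested 0.0% passed at an adjusted p under 0.05 with limma and Benjamini-Hochberg adjustment. At an unadjusted p under 0.05 limma gave 1410 rows, and the smallest adjusted p was 0.110. That number was 4522 without control replicate 1 and 672 without atrazine replicate 2. Of all tested rows, 4.66% were lower in every atrazine library than in any control library. Among the members this held for sp4-c, which was picked for its lower level, and for 0 of the other 2. The median log2 difference of all tested rows was 0.04, and 42.7% of them were lower in atrazine.

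**Figure D2:**
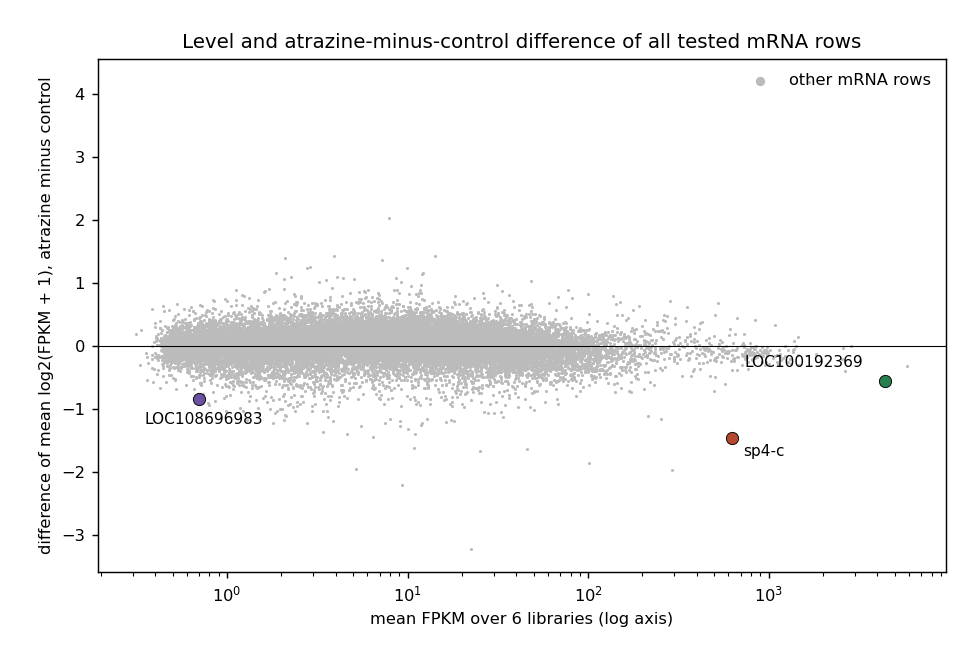
Mean FPKM over the 6 libraries (horizontal, log axis) against the difference of mean log2(FPKM + 1), atrazine minus control (vertical), for all 23824 tested mRNA rows in grey and the 3 rows described as sperm-specific in colour. The sp4-c row, at -1.46, was picked for its lower level and stands below nearly all rows of its level. LOC100192369, at -0.56, is among the most abundant rows.

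Within each library the balance between both abundant members was set beside their levels. LOC100192369 had 10.7, 7.24 and 14.5 times the FPKM of sp4-c in atrazine replicates 1, 2 and 3, against 5.80, 6.15 and 4.81 times in control replicates 1, 2 and 3. The lowest atrazine ratio was above the highest control ratio. The mean ratio was 10.8 ± 3.64 in atrazine testes and 5.59 ± 0.693 in control testes (SD, n = 3 each). This ratio contains the value for which sp4-c was picked, so it is a description and was not tested.

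Control replicate 2 was the highest library of all 3 members. In atrazine sp4-c and LOC100192369 did not share an order. Atrazine replicate 3 was the highest of its group for both, but atrazine replicate 2 was the lowest for LOC100192369 and not for sp4-c. LOC108696983, with an estimated 2, 0 and 0 reads in atrazine replicates 1, 2 and 3, had too few reads to give an order.

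The surroundings of sp4-c held a pair of abundant non-coding transcripts. Rows of the lncRNA table within 100 kb were looked up after the member values were seen. The row LOC108704350 lay at 2130182 to 2131189, with a gap of 2880 bp before sp4-c, and LOC108704372 at 2138299 to 2139312, with a gap of 3284 bp after it. Both lay on the strand of sp4-c. Their spans of 1008 and 1014 bp were close to the 945 bp of sp4-c, and their starts lay 3888 and 4229 bp from its start. Both lncRNA genes carry the same symbols in the annotation of assembly v10.1. By mean FPKM they ranked 12th and 7th of the 4652 lncRNA rows. Their sequences were not used here, and whether reads were shared between them and sp4-c was not tested.

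LOC108704350, the row before sp4-c, had 201, 122 and 233 FPKM in atrazine replicates 1, 2 and 3, against 279, 390 and 193 FPKM in control replicates 1, 2 and 3. Control replicate 3 lay between the atrazine values, so the groups overlapped. The log2 difference was -0.62 ± 0.33 (SE), with a 95% interval of -1.40 to 0.15 and a limma adjusted p of 0.785 over the 1894 lncRNA rows tested, of which 0.0% passed. The groups did not overlap in 12.2% of those lncRNA rows, with 7.92% higher and 4.28% lower in atrazine.

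LOC108704372, the row after sp4-c, had 310, 118 and 379 FPKM in atrazine replicates 1, 2 and 3, against 222, 422 and 262 FPKM in control replicates 1, 2 and 3. Atrazine replicate 2 was the lowest library and the groups overlapped. The log2 difference was -0.27 ± 0.46 (SE), with a 95% interval of -1.35 to 0.81 and a limma adjusted p of 0.922. It turned to 0.24 when atrazine replicate 2 was left out.

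The summed level of sp4-c and both flanking rows was 801, 575 and 973 FPKM in the atrazine libraries and 1214, 2019 and 1312 FPKM in the control libraries. The share of sp4-c in that sum was 36.2%, 58.2% and 37.2% in atrazine replicates 1, 2 and 3, against 58.7%, 59.8% and 65.3% in control replicates 1, 2 and 3. In atrazine replicate 2 both flanking rows were at their lowest, and the share was just below that of the controls. In atrazine replicates 1 and 3 the flanking rows stood within the range of the control libraries while sp4-c did not. The sum and the share contain the value for which sp4-c was picked, so they are a description and were not tested.

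**Figure D3:**
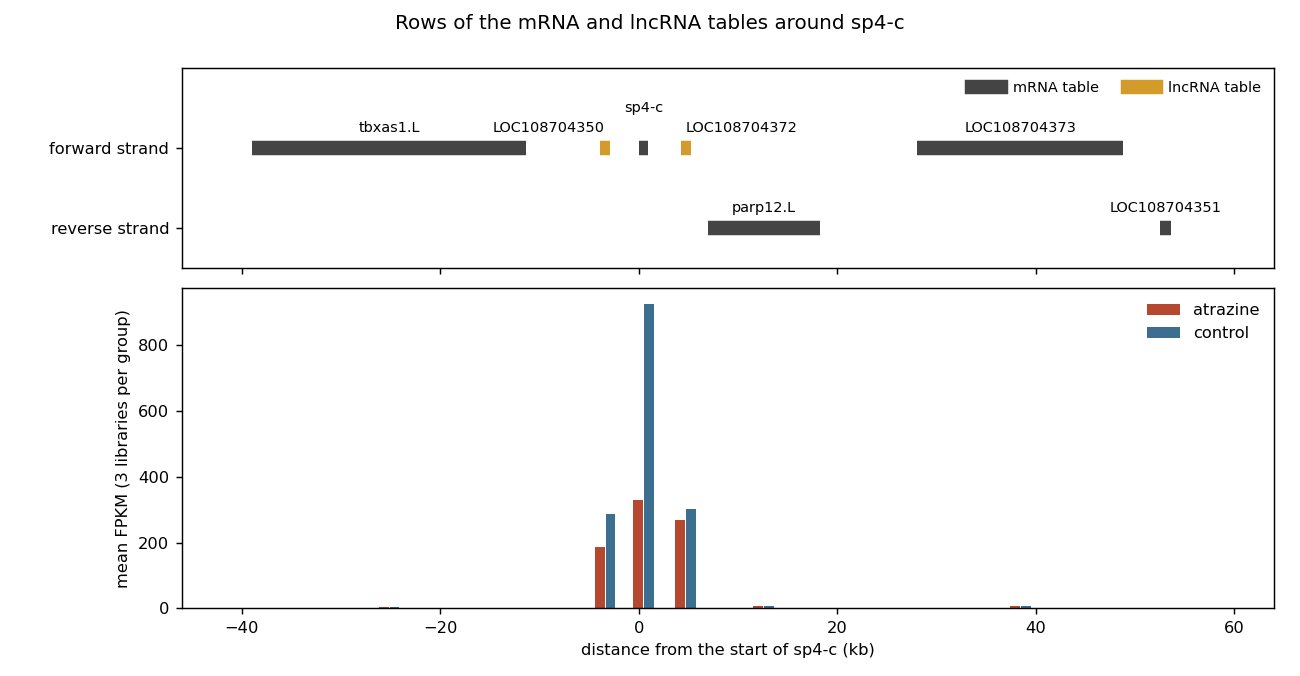
Rows of the mRNA and lncRNA tables around sp4-c by strand (top) and their mean FPKM in atrazine and control testes (bottom, 3 libraries per group, bars from 0), against the distance from the start of sp4-c in kb. The tall bars are those of sp4-c and of the lncRNA row on each side of it, and nearby parp12.L has a mean of 6.77 FPKM in exposed and 6.91 FPKM in control testes.

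The protein-coding neighbours of sp4-c were low and their groups overlapped. The nearest were parp12.L, a poly-ADP-ribose polymerase family gene, 6056 bp after it, and tbxas1.L, the thromboxane synthase gene, 11380 bp before it. Their means were 6.77 ± 0.391 FPKM in exposed testes and 6.91 ± 0.852 FPKM in controls for parp12.L, and 5.25 ± 0.290 FPKM in exposed testes and 4.62 ± 0.453 FPKM in controls for tbxas1.L (SD, n = 3 each). The next rows out, the kinase gene hipk2.L and LOC108704373, had log2 differences of 0.35 and -0.21. The limma adjusted p of these 4 rows lay between 0.693 and 0.963.

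LOC100192369 was flanked by histone genes. The row before it, h1fx.S, a linker histone gene named h1-10.S in assembly v10.1, ended 5109 bp away. The first row after it, LOC108715878, named h2aj.S there and thus a gene of the core histone H2A family, began 8293 bp away. The linker histone row averaged 58.9 ± 7.80 FPKM in exposed testes and 54.0 ± 0.404 FPKM in controls, and the H2A row 15.4 ± 1.23 FPKM in exposed testes and 15.1 ± 3.72 FPKM in controls (SD, n = 3 each). Their log2 differences were 0.11 and 0.05, and their groups overlapped. Farther out, the vesicle traffic genes rab7 and LOC108715879 (copg1.S in v10.1) had log2 differences of -0.20 and 0.17. Of these, rab7 was lower in every atrazine library than in any control library, and its limma adjusted p was 0.693. The only row within 100 kb of LOC108696983, LOC108695786, was below the filter.

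No row of another kind was found at the members. Of 4652 lncRNA rows and 68575 circRNA rows, 0 overlapped a member or named one as host or associated gene. The circRNA table, which counts reads over back-splice junctions, held 37092 to 86265 junction reads per library.

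The genes with the profile most like that of sp4-c were sought over the 6 libraries among 21377 tested rows with a mean of at least 1 FPKM, by the smallest root mean square difference of mean-centred log2(FPKM + 1). The rows with a symbol were cd247.L (0.26), a T cell receptor subunit gene, mmp28.L (0.33), a matrix metalloprotease gene, and LOC108708499 (0.33), named commd6.L in v10.1. After them came LOC108707690 (0.36), named tshb.L in v10.1, stkld1.L (0.36), hbg1.L (0.37), a haemoglobin gene, star (0.38), and ppp1r32.L (0.39). The gene star encodes the carrier of cholesterol into mitochondria in steroid-making cells. Since sp4-c was picked for its group difference, rows like it had to be lower in atrazine too, and the likeness carries no test.

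All 8 rows had a lower mean FPKM than sp4-c. The most abundant, hbg1.L, had 120, 186 and 128 FPKM in atrazine replicates 1, 2 and 3, against 244, 614 and 220 FPKM in control replicates 1, 2 and 3, and cd247.L averaged 1.39 FPKM in atrazine and 5.43 FPKM in control. For 7 of the 8 the groups did not overlap, and ppp1r32.L was the exception. Of all tested rows 4.66% were lower without overlap, but these 8 were chosen by likeness to a row without overlap. Some rested on few reads, with an estimated 10, 10 and 2 for LOC108707690 and 15, 7 and 7 for cd247.L in atrazine replicates 1, 2 and 3. The profile of LOC100192369 differed from that of sp4-c by 0.55, and 389 rows were nearer to sp4-c.

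**Figure D4:**
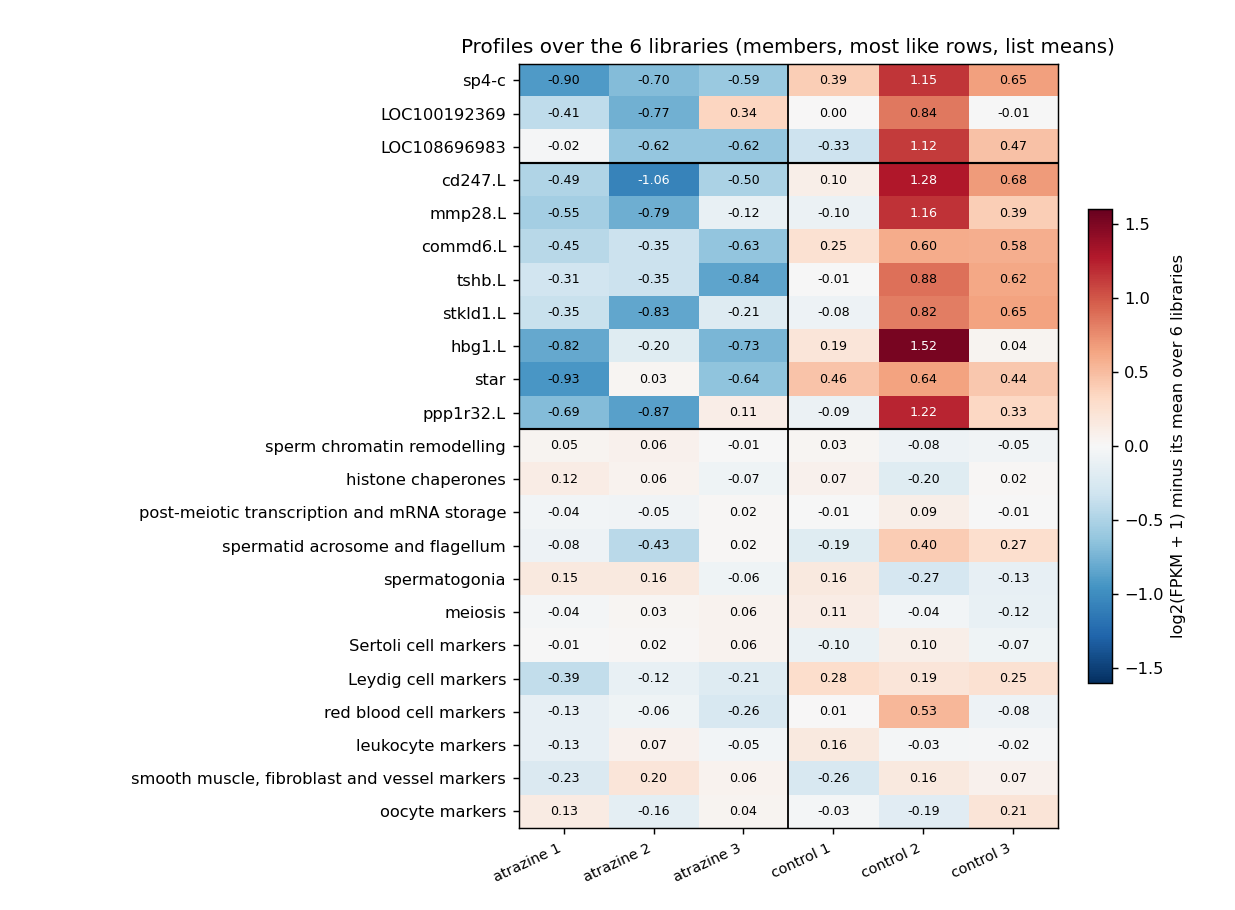
Values of log2(FPKM + 1) minus their mean over the 6 libraries, coloured from low (blue) to high (red), for the 3 rows described as sperm-specific, the 8 rows most like sp4-c and the mean of each of the 12 gene lists, with atrazine libraries left of control libraries. The sp4-c row runs from -0.90 to -0.59 in atrazine and from 0.39 to 1.15 in control, and control replicate 2 is high in all 3 members.

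The lists that follow are groups of genes from other steps of sperm formation and from other cells of a testis. They were matched by symbol, their rows were fitted with all mRNA rows, and in each list 0 rows passed the limma test. In each list the 3 rows with the highest mean FPKM are named.

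Genes of sperm chromatin remodelling were split between higher and lower values. Of 37 tested rows for variant histones, histone-modifying enzymes and DNA breaks of spermatids, 22 were higher and 15 lower in atrazine, with a median log2 difference of 0.03 against 0.04 over all tested rows. In 2 rows (5.41%) every atrazine library was higher than any control library, where 6.63% of all rows were so. In 0 rows was every atrazine library lower, against 4.66% of all rows. The most abundant was h2afx.L, the gene of the histone variant H2A.X, with 2711, 2734 and 1608 FPKM in atrazine replicates 1, 2 and 3, against 3630, 2960 and 1723 FPKM in control replicates 1, 2 and 3. Its groups overlapped, and replicate 3 was the lowest library in each. The linker histone gene h1f0.L averaged 71.5 ± 11.7 FPKM in exposed testes and 72.9 ± 4.61 FPKM in controls, and the histone demethylase gene kdm3a.L, needed for protamine expression in mice, 64.7 ± 4.81 FPKM in exposed testes and 62.4 ± 4.38 FPKM in controls (SD, n = 3 each).

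Histone chaperones, which carry histones on and off DNA, had 26 of 31 tested rows higher and 5 lower. The lower rows were 16.1% of the list, against 42.7% of all tested rows. In 2 rows (6.45%) every atrazine library was higher than any control library, where 6.63% of all rows were so. In 0 rows was every atrazine library lower, against 4.66% of all rows. The median log2 difference was 0.09, but it turned to -0.02 without control replicate 2. The nucleosome assembly gene nap1l1.S averaged 216 ± 13.0 FPKM in exposed testes and 222 ± 12.8 FPKM in controls (SD, n = 3 each). The gene set.L averaged 220 ± 3.92 FPKM in exposed testes and 188 ± 26.9 FPKM in controls, and npm1.L, encoding nucleophosmin, 143 ± 20.1 FPKM in exposed testes and 130 ± 21.5 FPKM in controls (SD, n = 3 each). Of these, set.L had groups that did not overlap, with a limma adjusted p of 0.693. The row npm2.L, the gene of the nucleoplasmin that acts on sperm chromatin in eggs, was named after its values were seen. It had a mean of 1.32 FPKM over the 6 libraries and a log2 difference of -0.55. Another npm2 row, LOC397921 (npm2.S in v10.1), went the other way. Its mean was 5.24 FPKM and its log2 difference 0.23, with groups that overlapped, and it too was named after its values were seen.

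In mammals protamine transcripts are stored in spermatids before they are translated. Genes of post-meiotic transcription and mRNA storage formed the next list. Of 28 tested rows 14 were higher and 14 lower, with a median log2 difference of 0.01. In 5 rows (ybx1.S, nsep1, ybx2.S, papd4.L and tbpl1.L) every atrazine library was lower than any control library, and in 1 row, LOC108718757 (crem.L in v10.1), every atrazine library was higher. Of the 28 rows, 17.9% were thus lower without overlap, against 4.66% of all rows, and 3.57% higher, against 6.63% of all rows. The row papd4.L is a poly(A) polymerase gene, tbpl1.L encodes a TBP-like factor needed for spermatid development in mice, and crem.L encodes a transcription factor of post-meiotic germ cells. These 3 were named after their values were seen.

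The most abundant rows of that list were Y-box genes. Of these, ybx2 encodes a protein that binds and masks stored mRNA in frog germ cells. The gene ybx2.S had 363, 242 and 324 FPKM in atrazine replicates 1, 2 and 3, against 384, 511 and 395 FPKM in control replicates 1, 2 and 3. The means were 309 ± 61.7 FPKM in exposed testes and 430 ± 70.04 FPKM in controls (SD, n = 3 each), a log2 difference of -0.48 ± 0.18 (SE). The rows ybx1.S and nsep1, named ybx1.L and ybx1.S in v10.1, had log2 differences of -0.25 and -0.37. None of the 3 passed, each with a limma adjusted p of 0.693. The L copy of ybx2.S, ybx2.L, had a mean of 309 FPKM, a log2 difference of -0.26 and groups that overlapped. It was named after its values were seen. The L and S copies of a gene may share reads.

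The list for the acrosome and flagellum, the other parts built by spermatids, leaned lower in atrazine. Of its 74 symbols 31 were found, and acrosome genes such as acr, acrbp and izumo1 were not. The acrosome rows zpbp2.L, LOC108713413 (spink2.L in v10.1) and LOC108703709 (spink2.S), named after their values were seen, stood at -0.14, 0.06 and 0.26. The lean thus describes mostly flagellum and cilium rows. Of 41 tested rows 6 were higher and 35 lower, with a median log2 difference of -0.30, or -0.18 without atrazine replicate 2 and -0.48 without control replicate 1. This list overlaps lists whose direction was known from earlier results of these data, so the count is not independent evidence. Among its most abundant rows, the tektin gene tekt1.L had 134, 100.0 and 149 FPKM in atrazine replicates 1, 2 and 3, against 127, 203 and 202 FPKM in control replicates 1, 2 and 3. Control replicate 1 lay among the atrazine libraries, so the groups overlapped.

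The radial spoke gene rsph1.L averaged 114 ± 28.0 FPKM in exposed testes and 175 ± 58.3 FPKM in controls, and the cilium gene cfap52.L 102 ± 25.6 FPKM in exposed testes and 148 ± 46.9 FPKM in controls (SD, n = 3 each). In both, control replicate 1 again lay within the atrazine values. The groups did not overlap in 3 of the 41 rows (7.32%), all lower, against 4.66% of all rows. The difference closest to that of sp4-c in this list, -1.45, belonged to LOC108709339 (tekt1.S in v10.1), whose groups overlapped at a mean of 6.44 FPKM, a row named after its values were seen. The summed FPKM of the list was 1450 to 2068 in the atrazine libraries and 1771 to 2898 in the control libraries, and it overlapped.

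Lists of earlier germ cells depended on control replicate 2. Of 18 tested rows of spermatogonia and germ cell genes 13 were higher and 5 lower, with a median log2 difference of 0.21, or 0.064 without control replicate 2. The RNA-binding protein gene dazl.L averaged 455 ± 9.43 FPKM in exposed testes and 471 ± 14.1 FPKM in controls (SD, n = 3 each). The helicase gene ddx4.L had a log2 difference of 0.14 and uchl1.L of 0.19. Of 18 tested meiosis rows 12 were higher and 6 lower, and the median was 0.07, or 0.0012 without that library, against 0.04 over all rows. In 2 meiosis rows (11.1%) every atrazine library was lower than any control library, against 4.66% of all rows. In 1 meiosis row (5.56%) every atrazine library was higher, against 6.63% of all rows. The synaptonemal complex gene sycp3.L, one of the lower rows without overlap, averaged 110 ± 11.6 FPKM in exposed testes and 125 ± 4.70 FPKM in controls (SD, n = 3 each). Its limma adjusted p was 0.693. The meiosis genes hormad1.S and LOC108710719 (smc1b.L in v10.1) had log2 differences of 0.15 and -0.15. Transcripts of these named germ cell genes were present in all 6 libraries.

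**Figure D5:**
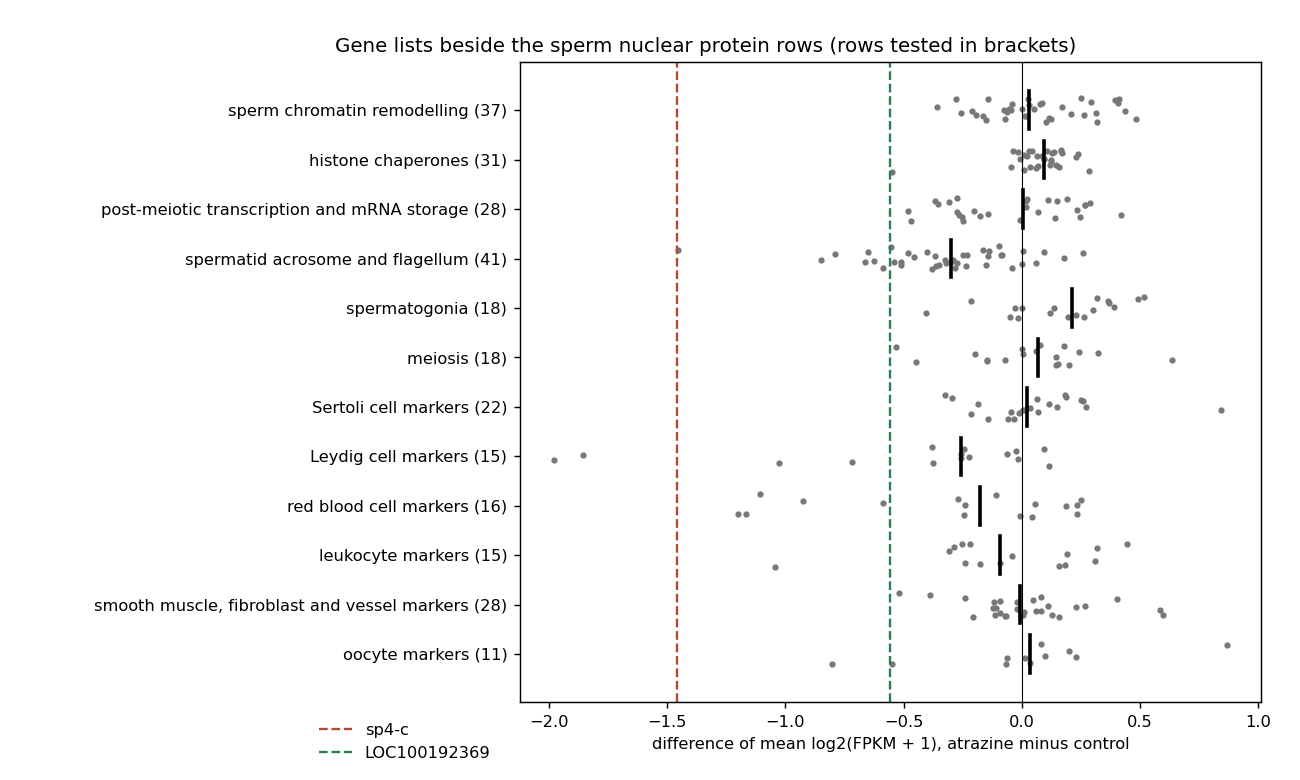
Difference of mean log2(FPKM + 1), atrazine minus control, of each tested row (grey points, jittered vertically) of the 12 gene lists, with the list median as a black bar and the values of sp4-c (-1.46) and LOC100192369 (-0.56) as dashed lines. The acrosome and flagellum list, with a median of -0.30, and the Leydig cell list, with a median of -0.26, lie lowest.

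Markers of some other cells of the testis were lower in atrazine beside sp4-c. Leydig cells make androgens between the seminiferous tubules, and 13 of the 15 tested rows of their markers were lower after exposure. The list median was -0.26 on the log2 scale. In 6 rows (40.0%) every atrazine library was lower than any control library, against 4.66% of all rows. Their summed FPKM was 391 to 502 in the atrazine libraries and 946 to 1106 in the control libraries, without overlap, and 0 of the 15 rows was at 0 in all libraries. The row LOC108703714 (rflcii.S in v10.1, insulin-like 3) averaged 119 ± 32.4 FPKM in exposed testes and 461 ± 40.4 FPKM in controls, and LOC108713404 (rflcii.L) 43.8 ± 12.9 FPKM in exposed testes and 160 ± 40.3 FPKM in controls (SD, n = 3 each). Their limma adjusted p was 0.110 and 0.406. The third most abundant, cyp17a1.L, an enzyme gene of androgen synthesis, had a log2 difference of -0.38 and groups that overlapped. This list was chosen with earlier results of these data known, so its counts are not independent evidence.

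Red blood cell markers, which stand for blood left in the tissue, had 6 of 16 tested rows higher and 10 lower, with a median log2 difference of -0.17. In 2 rows (12.5%) the groups did not overlap, both lower, against 4.66% of all rows. Their summed FPKM was 265 to 424 in the atrazine libraries and 418 to 1274 in the control libraries, with control replicate 2 the highest, and 0 rows were at 0 in all libraries. The haemoglobin genes hbg1.L, LOC108702027 (hba1.L in v10.1) and hba1.S had log2 differences of -1.17, -1.11 and -0.92. Of these, only hbg1.L had groups that did not overlap. The other row without overlap was slc4a1.S, at a mean of 0.616 FPKM. The other tested haemoglobin rows, hba2.L, hba3.L, hbg2.S and hba4.L, stood at 0.055, 0.23, 0.19 and -0.11. Their means were 4.23, 1.21, 0.700 and 0.611 FPKM. These 4 rows and slc4a1.S were named after their values were seen. The part of Leydig cells and of blood in the sp4-c difference was not tested.

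The remaining lists had medians between -0.09 and 0.03, and each turned sign when some single library was left out. Sertoli cells, the nurse cells of the germ line, had 13 rows higher and 9 lower of 22 tested and a median log2 difference of 0.02, with dmrt1.L at 0.04, clu.L at -0.32 and inha.S at 0.18. In 3 Sertoli rows (13.6%), inha.S among them, every atrazine library was higher than any control library, against 6.63% of all rows. In 1 Sertoli row (4.55%) every atrazine library was lower, against 4.66% of all rows. The summed FPKM of the Sertoli list was 482 to 529 in the atrazine libraries and 481 to 564 in the control libraries. Smooth muscle, fibroblast and vessel markers had 14 rows higher and 14 lower of 28 and a median of -0.01. Their most abundant rows were LOC100653490 (acta2.S in v10.1), vim.S and vim.L, at -0.12, -0.24 and -0.52. Leukocyte markers had 6 rows higher and 9 lower of 15 and a median of -0.09. The rows cd74.S, itgb2.S and cd3g.S stood at -0.04, -0.31 and 0.19. Oocyte markers, looked at because atrazine has been studied for feminised gonads in frogs, had 7 rows higher and 4 lower of 11. Their median was 0.03, and figla.L, gtf3a.L and gdf1.L_2 stood at -0.06, 0.20 and 0.10. The last is 1 of 4 tested rows with the symbol gdf1.L, whose log2 differences ran from -0.07 to 0.87.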

How the data were processed

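Stranded libraries were made from rRNA-depleted testis RNA, per the labels' protocols. The submitters' processing notes name CASAVA 1.8, Bowtie2 and HISAT2 without a role. Not given in the sources used here: quantifier, circRNA caller, annotation, build and the use of strand in counting. The authors deposited FPKM per mRNA gene and per lncRNA transcript, a signal headed as counts that is not whole, and circRNA junction counts with normalized log2 values, per the file headers; those log2 values were not used. FPKM corrects for length and library size. Read numbers were estimated from the most frequent value of the deposited signal, refined over its low multiples and taken as the step of a single read. At that step 99.77% or more of the signal values were whole at a tolerance of 0.02. The totals were 14549417, 15393412 and 7360619 in atrazine replicates 1, 2 and 3 and 17018687, 16841767 and 13784631 in control replicates 1, 2 and 3. The counting error of a row is the square root of its estimated reads, given as a percentage of those reads. It ignores PCR copies, which cannot be told from separate molecules.

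Groups and replicate numbers came from sample titles, and circRNA control columns, which carry a shorter name, were matched by number. Fits used lmFit and eBayes (trend) of limma 3.58.1 under R 4.3.3 on log2(FPKM + 1), which understates differences of low rows. Rows needed at least 0.5 FPKM in at least 3 libraries. Tests were two-sided, with group as the only term. The 95% intervals are per row and were not adjusted for the number of rows tested. P-values were adjusted per table by Benjamini-Hochberg and called under 0.05, and the fit was tested on simulated data. Members and lists were chosen with earlier results of these data known. Named genes are the members, their nearest mRNA rows (up to 2 on each side within 100 kb), the 3 most abundant rows of each list and the 8 rows with a symbol most like sp4-c. List symbols were matched to deposited or v10.1 symbols without L or S. Coordinates follow the deposited tables and start at 1. Near-identical copies may share reads. Alternatives were another pseudocount, no filter, another scaling, each library left out and a replicate block. No circRNA row lay at a member, so circRNAs were not tested.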

Additional observations from a re-analysis of the deposited data

How the results depend on the processing

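The difference of sp4-c kept its direction in all 10 alternatives, with log2 values of -1.63 to -1.25, as did LOC100192369 (-0.87 to -0.28, limma adjusted p of 0.329 to 0.999), LOC108696983 (-2.43 to -0.49, adjusted p of 0.159 to 0.999) and the lncRNA row LOC108704350 (-0.88 to -0.35). The value of -2.43 came with a pseudocount of 0.1 in place of 1. For sp4-c, picked for its lower level and without overlap of its groups, leaving out 1 library could not turn the sign. Dropping the filter or adding the replicate block leaves the difference of a row as it is. Its kept direction is thus a description. The lncRNA row LOC108704372 ranged from -0.60 to 0.24 when 1 library was left out and reversed, to 0.24, without atrazine replicate 2. The cause was not tested.

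Leaving out 1 library at a time gave 0 to 5 called mRNA rows against 0 with all libraries, with 1 without atrazine replicate 3 and 5 without control replicate 1. The number of rows whose groups do not overlap was 3912 to 9114, against 2689, since fewer libraries overlap less often. Among list medians, sperm chromatin remodelling lay at 0.0030 to 0.090, post-meiotic transcription and mRNA storage at -0.15 to 0.047 and leukocyte markers at -0.17 to 0.058 under the same omissions. Of these, sperm chromatin remodelling kept its sign and the others turned. Other medians that turned sign were histone chaperones (-0.017 to 0.14) and Sertoli cells (-0.0072 to 0.070). Smooth muscle, fibroblast and vessel markers (-0.13 to 0.13) and oocyte markers (-0.13 to 0.14) turned too. Others that kept their sign were acrosome and flagellum (-0.48 to -0.18), spermatogonia (0.064 to 0.34) and meiosis (0.0012 to 0.15). Leydig cells (-0.32 to -0.21) and red blood cells (-0.25 to -0.11) also kept theirs. The number of mRNA rows at an unadjusted p under 0.05 was 672 to 4522, against 1410. Median-of-ratios scaling moved the median of all rows by -0.037.

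The replicate numbers are not said to pair libraries, and the deviations of same-numbered libraries correlated at 0.025, -0.35 and -0.039 over 23824 rows. With the replicate number as a block the difference of sp4-c was -1.46 and 0 mRNA rows passed, 1031 of them at an unadjusted p under 0.05. Planned count models in edgeR and DESeq2 were not run, because a few deposited signal values are too small to be whole reads. The smallest library, atrazine replicate 3, limits low rows most, and LOC108696983 rests on 17 reads in all.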
